A study of Mus musculus with 9 samples.

Results

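The mitochondrial carrier family was followed through the zones of the mouse heart after ischemia and reperfusion. The family was taken as every transcript cluster whose only gene symbol was Slc25a followed by a number, or Ucp1, Ucp2 or Ucp3, with 1 cluster per gene. A transcript cluster is the unit that this array uses for a gene or transcript. The rule found 48 genes among 30087 genes that have a cluster of their own, each with a single cluster, out of 65534 clusters in all. Ucp2 has no cluster of its own in the annotation used and was not analysed here.

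Carriers of this family sit in the inner membrane of mitochondria, with few exceptions, and move nucleotides, phosphate, carboxylates, amino acids, carnitine esters and cofactors that cannot cross it unaided. In heart muscle they export the ATP made by oxidative phosphorylation, bring in phosphate and ADP, pass reducing equivalents through the malate-aspartate shuttle and carry long-chain acyl groups to beta-oxidation. The uncoupling proteins belong to the same family and let protons or anions back across the membrane.

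The samples were left ventricle from 3 male C57BL/6J mice (given as C57BL/6 in the strain label), 8 weeks old, with no genetic change named. All had the left anterior descending coronary artery ligated for 45 min, followed by 24 h of reperfusion. The ventricle was divided into the ischemia zone (IZ), its border zone (BZ) and tissue remote from both (NIZ, the non-ischemia zone), with 3 samples per zone numbered 1 to 3 and 1 single-colour array per sample. The NIZ is therefore tissue of injured hearts, and no sham heart was analysed here. The labels do not say which mouse gave which number, and p-values measure only the spread between these samples. In whole tissue, fewer cells of a type and less RNA per cell cannot be told apart.

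Levels below are log2 values from RMA, so a difference of 1 is a doubling of signal, and arrays have no read depth. Array medians lay between 4.19 and 4.29. Many carriers hold exactly the same value on several arrays. The 9 arrays held 7 distinct values for Slc25a23, 6 for Slc25a16, 3 for Slc25a14, Slc25a21 and Slc25a53, and 2 for Ucp1. Why values repeat was not tested, so ties and small SDs need not mean that samples agreed. Zones were compared with limma across all 65534 clusters, with Benjamini-Hochberg adjustment and a threshold of 0.05. All 20 cardiomyocyte markers lay above the array median on all 9 arrays, and their mean level was 11.60 to 11.82. Of 14 markers of neurons and glia, which were examined because a label tag that holds the zone is named brain, 12 were measured, with mean levels from 5.08 to 5.17, and 8 of the 12 lay above the array median on all 9 arrays. Camk2a and Tubb3 were the highest of the 8, with means of 6.99 and 6.36 over the 9 arrays. The neuronal markers Snap25 and Syt1 were among the others, between 3.88 and 3.99. The part of such markers in the values of the carriers was not tested.

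No carrier differed between zones at the adjusted threshold. In limma 0 of 48 genes passed in IZ against NIZ, where 0.0% of all clusters passed, and the smallest adjusted p of a carrier was 0.999. In BZ against NIZ 0 of 48 passed, again beside 0.0% of all clusters, with a smallest adjusted p of 0.854. In IZ against BZ 0 of 48 passed, beside 0.0% of all clusters, with a smallest adjusted p of 0.943. Without adjustment, p was under 0.05 for 0 of 48 carriers in IZ against NIZ (3.96% of all clusters), for 1 in BZ against NIZ (5.28%) and for 0 in IZ against BZ (3.84%).

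The carriers' differences centred on zero. Their median difference was 0.01 log2 in IZ against NIZ, with 27 genes higher and 20 lower, beside -0.01 over all clusters. It was -0.01 in BZ against NIZ, with 20 higher and 28 lower, beside 0.00 over all clusters. It was 0.01 in IZ against BZ, beside -0.02 over all clusters. The IZ mean was less than 0.1 log2 away from the NIZ mean in 38 of 48 carriers (79.2%), beside 72.4% of all clusters, and the BZ mean in 37 (77.1%), beside 69.0%. In all 48 carriers, the samples of at least 1 zone were farther apart than the 3 zone means were. Means of 3 samples vary less than single samples, and the share among all clusters was not taken. This count therefore says little about the size of zone differences.

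**Figure D1:**
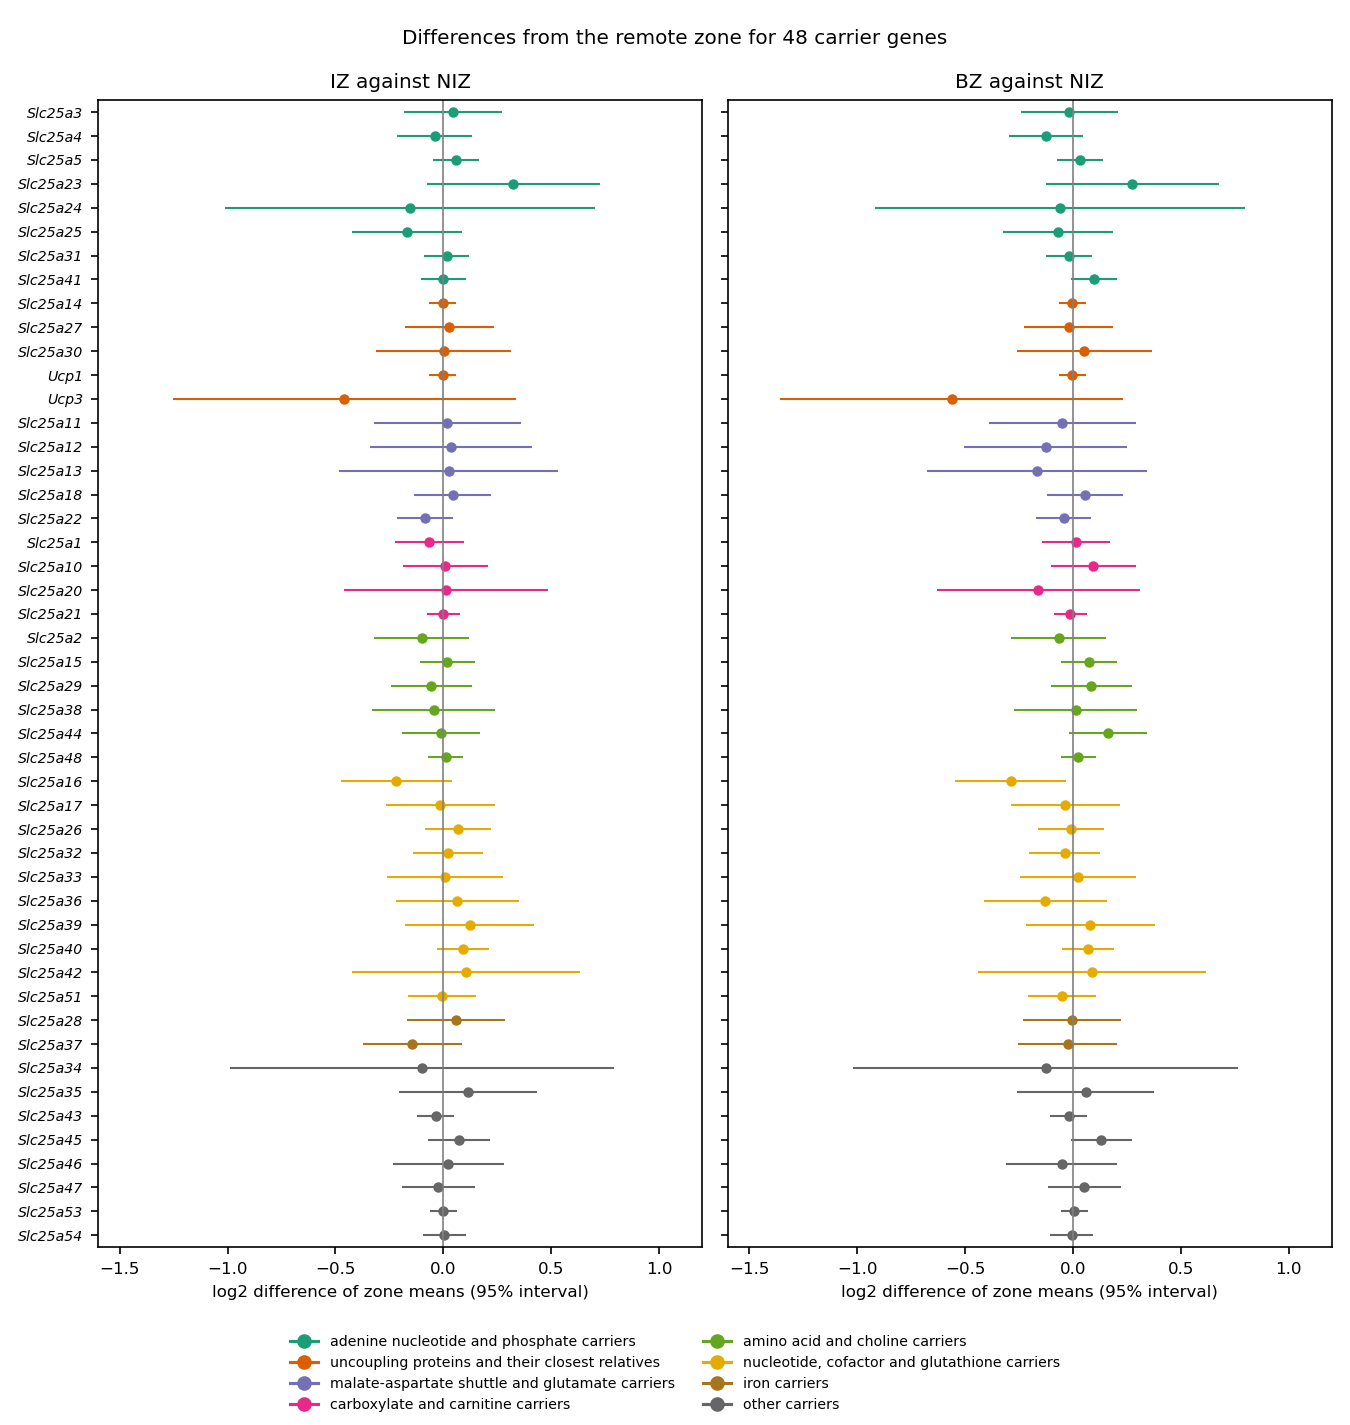
Log2 difference of zone means for the 48 carrier genes, IZ against NIZ on the left and BZ against NIZ on the right, with limma's 95% interval as a line and colours for the kind of carrier. The points crowd around zero, and Ucp3 lies farthest to the left in both panels (-0.46 and -0.56). In this fit, which has no block for the sample number, only the interval of Slc25a16 in BZ against NIZ lies wholly on one side of zero.

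The largest differences from the NIZ were those of Ucp3, the uncoupling protein of skeletal and heart muscle, which is known to be induced when fatty acids are the main fuel. It measured 6.94, 7.52 and 7.78 in IZ samples 1 to 3, 6.69, 7.75 and 7.48 in the BZ, and 7.49, 8.31 and 7.81 in the NIZ. The zones overlapped, although IZ and BZ samples each lay below the NIZ sample of the same number. The mean of the IZ was 7.41 ± 0.43 (SD, n = 3), against 7.87 ± 0.41 in the NIZ, a difference of -0.46 ± 0.34 (SE) or 1.37-fold lower. That of the BZ was 7.31 ± 0.55, a difference of -0.56 ± 0.34 or 1.48-fold lower. Neither passed (limma, adjusted p = 0.999 and 0.854), and the 95% intervals ran from -1.25 to 0.34 and from -1.36 to 0.23. Without IZ sample 1 the IZ difference was -0.22, and without BZ sample 1 the BZ difference was -0.25. Ucp1, the uncoupling protein of brown fat, was below the array median everywhere, at 3.30 on 8 arrays and 3.32 in NIZ sample 2. The relatives Slc25a14, Slc25a27 and Slc25a30 differed from the NIZ by at most 0.05 in mean in either zone.

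Slc25a16, a carrier linked to coenzyme A transport, was the only family member with an unadjusted p under 0.05, in BZ against NIZ (limma, adjusted p = 0.854, exact two-sided permutation p = 0.2). Its levels were 8.09, 8.14 and 8.14 in the IZ, 7.95, 8.07 and 8.14 in the BZ, and 8.14, 8.60 and 8.28 in the NIZ. The BZ and NIZ samples met at 8.143615, the value deposited for IZ samples 2 and 3, BZ sample 3 and NIZ sample 1. The BZ difference was -0.29 ± 0.11, 1.22-fold lower, and the IZ difference was -0.22 ± 0.11. NIZ sample 2 carried much of both, since they were -0.16 and -0.09 without it. The other coenzyme A carrier, Slc25a42, measured 6.30, 6.56 and 6.69 in the IZ, 6.16, 6.56 and 6.78 in the BZ, and 5.97, 6.56 and 6.70 in the NIZ. Its zones overlapped almost fully, with the lowest value in sample 1 of each.

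Among the carriers of adenine nucleotides and phosphate, Slc25a4 and Slc25a5 exchange ADP for ATP, and Slc25a3 brings in phosphate for ATP synthesis. Slc25a4, the isoform of muscle and heart, measured 11.71, 11.76 and 11.90 in the IZ, 11.57, 11.77 and 11.77 in the BZ, and 11.77, 11.88 and 11.83 in the NIZ. Its BZ mean was below that of the NIZ by less than the largest gap within a zone (-0.12 ± 0.07, limma adjusted p = 0.854), and the difference was -0.056 without BZ sample 1. Slc25a5 measured 11.78, 11.65 and 11.75 in the IZ, 11.76, 11.69 and 11.65 in the BZ, and 11.68, 11.68 and 11.63 in the NIZ, a range of 0.14 over all 9 arrays. Slc25a3 measured 8.15, 8.24 and 8.39 in the IZ, 8.01, 8.24 and 8.35 in the BZ, and 8.13, 8.24 and 8.28 in the NIZ. For this phosphate carrier, the 95% intervals of the differences from the NIZ were -0.18 to 0.27 in the IZ and -0.24 to 0.21 in the BZ.

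The same group holds the carriers that exchange ATP-Mg for phosphate and set the size of the adenine nucleotide pool in the matrix, of which Slc25a23, Slc25a24 and Slc25a25 bind calcium. Slc25a23 had the largest positive difference of the family. It measured 8.36, 8.24 and 8.22 in the IZ, 8.22, 8.23 and 8.22 in the BZ, and 7.56, 7.93 and 8.35 in the NIZ. The injured zones were tight, with the same value, 8.215933, in IZ sample 3 and BZ samples 1 and 3. The NIZ was spread out, and NIZ sample 3 was level with the highest IZ sample. The differences were 0.32 ± 0.17 in the IZ and 0.28 ± 0.17 in the BZ, 1.25-fold and 1.21-fold, with adjusted p = 0.999 and 0.854 in limma. They rested on single arrays: without NIZ sample 1 they were 0.13 and 0.08, and without NIZ sample 3 they were 0.53 and 0.48, with adjusted p = 0.189 and 0.279 in limma.

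Slc25a24 behaved otherwise, with spread between sample numbers and little between zones. It measured 7.90, 7.60 and 7.19 in the IZ, 8.26, 7.55 and 7.18 in the BZ, and 8.35, 7.60 and 7.21 in the NIZ. Sample 1 was highest and sample 3 lowest in each zone, while the zone means were 7.57, 7.66 and 7.72. Slc25a25 measured 5.99, 6.03 and 6.03 in the IZ, 6.20, 6.07 and 6.07 in the BZ, and 6.46, 6.08 and 6.01 in the NIZ. Every IZ sample of Slc25a25 lay below every BZ sample, a difference of -0.10 ± 0.11 (exact two-sided permutation p = 0.1, the smallest that 3 against 3 samples allow). Without BZ sample 1 the difference was -0.056. That made 1 of 48 carriers lower in the IZ than the BZ with no overlap, where 3.53% of all clusters were, and 0 of 48 higher, where 2.24% were. The separation depended on how the arrays were scaled. After median centring 4 carriers were higher in the IZ than the BZ and 0 lower, beside 4045 and 1694 of 65534 clusters. After quantile normalization 2 carriers were higher and 2 lower, beside 3468 and 2410 clusters.

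**Figure D2:**
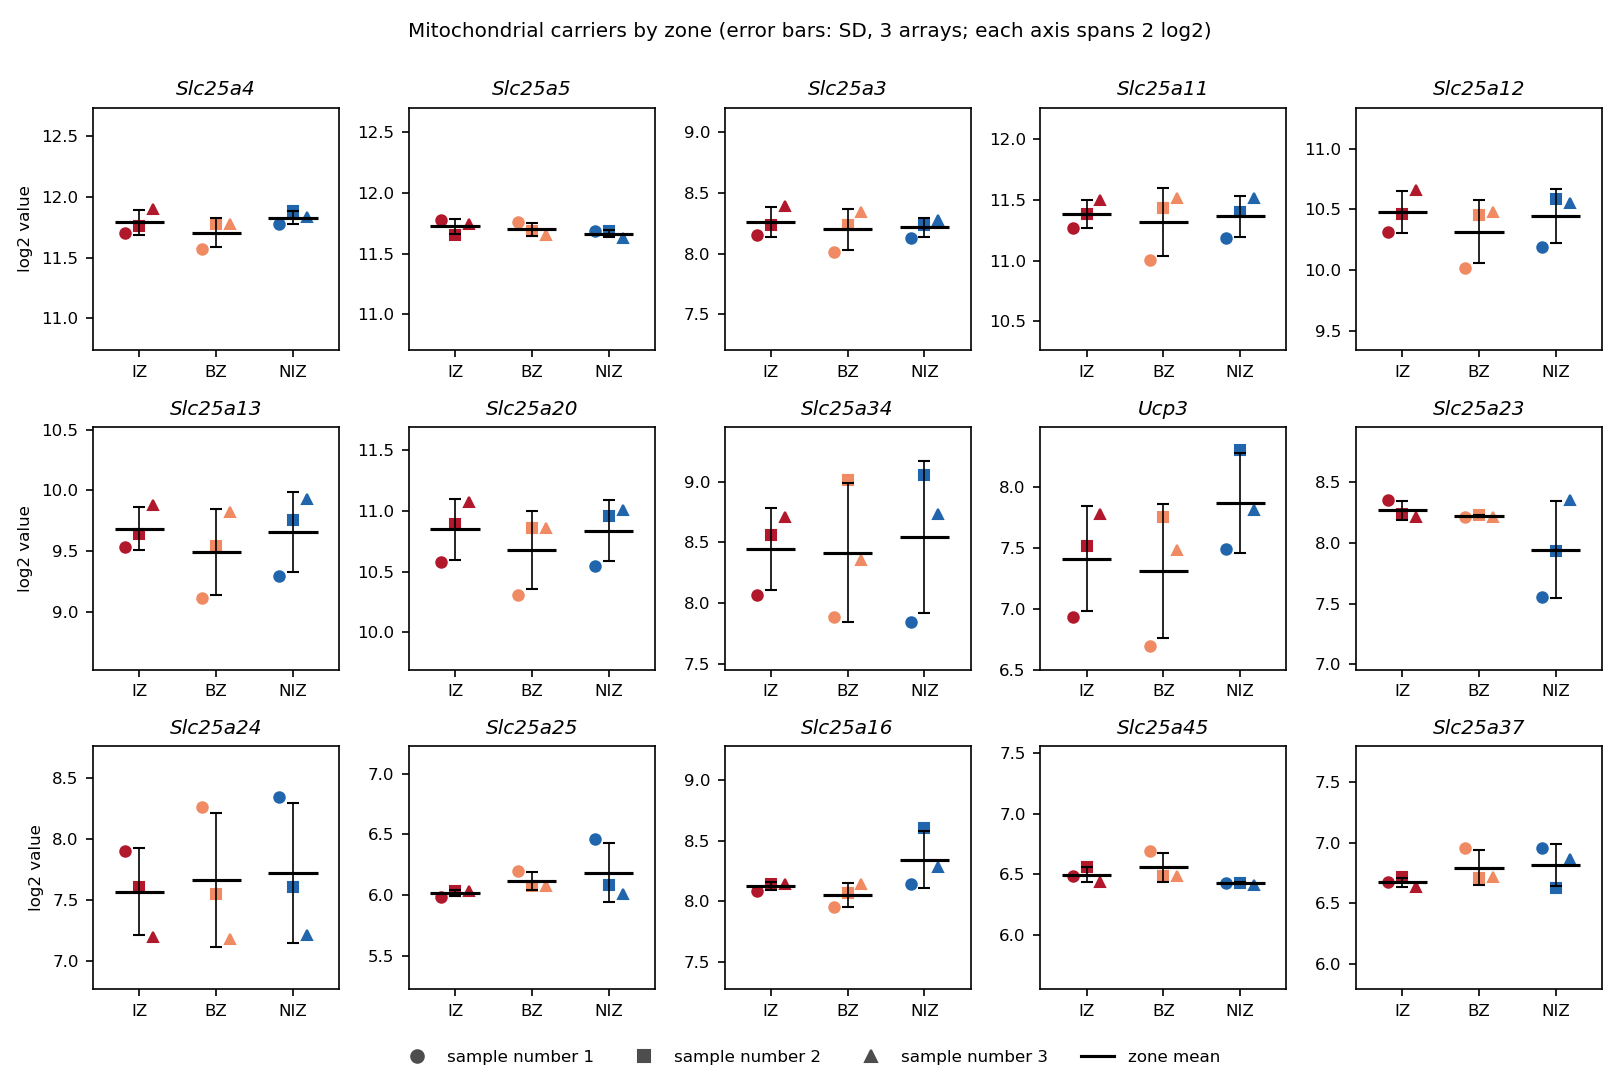
Log2 levels of 15 carriers in each of the 9 samples, with symbols for the sample number, a black line for the zone mean and bars for the SD of 3 samples; every axis spans 2 log2. Within each panel the zones overlap or nearly touch, Slc25a24 and Slc25a34 spread widely by sample number, and NIZ sample 1 of Slc25a23 lies apart at 7.56.

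In the malate-aspartate shuttle, Slc25a11 exchanges oxoglutarate for malate, and Slc25a12 and Slc25a13 are the calcium-regulated aspartate and glutamate carriers. Slc25a13 measured 9.53, 9.64 and 9.88 in the IZ, 9.11, 9.54 and 9.82 in the BZ, and 9.29, 9.76 and 9.93 in the NIZ. Slc25a12 measured 10.32, 10.46 and 10.66 in the IZ, 10.02, 10.46 and 10.48 in the BZ, and 10.19, 10.59 and 10.55 in the NIZ. Both were lower in the BZ than the NIZ at each sample number, yet the zones overlapped and the mean differences were -0.17 ± 0.22 and -0.13 ± 0.16 (limma, adjusted p = 0.896 and 0.894). Without BZ sample 1 both differences were 0.023. Slc25a11 measured 11.27, 11.38 and 11.50 in the IZ, 11.00, 11.43 and 11.52 in the BZ, and 11.18, 11.40 and 11.52 in the NIZ. All 3 carriers were lowest in sample 1 of every zone. The glutamate carriers Slc25a18 and Slc25a22 differed from the NIZ by between -0.08 and 0.06.

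Slc25a20, the carnitine-acylcarnitine translocase that admits long-chain acyl groups to the matrix, measured 10.58, 10.89 and 11.08 in the IZ, 10.31, 10.86 and 10.86 in the BZ, and 10.55, 10.96 and 11.01 in the NIZ. Sample 1 was again lowest in each zone, and the zones overlapped. The BZ difference from the NIZ was -0.16 ± 0.20 and that of IZ from BZ 0.17 ± 0.20 (limma, adjusted p = 0.892 and 0.949). With the sample number as a block the unadjusted p were 0.028 and 0.022 and the adjusted p 0.669 and 0.841. Without BZ sample 1 the differences were 0.025 and -0.014. The other carboxylate carriers, Slc25a1 for citrate, Slc25a10 for dicarboxylates and Slc25a21 for oxodicarboxylates, differed from the NIZ by between -0.06 and 0.09.

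The iron carriers of mitochondria, known as mitoferrins, are Slc25a37, which serves heme synthesis in developing red cells, and Slc25a28, which is expressed widely. Slc25a37 measured 6.67, 6.71 and 6.64 in the IZ, 6.96, 6.71 and 6.72 in the BZ, and 6.96, 6.63 and 6.87 in the NIZ. The IZ samples were close together near the lower end of the NIZ range (-0.14 ± 0.10, limma adjusted p = 0.999). The difference was -0.073 without NIZ sample 1 and -0.24 without NIZ sample 2. Slc25a28 measured 6.85, 7.14 and 7.00 in the IZ, 6.95, 7.09 and 6.75 in the BZ, and 6.91, 6.95 and 6.95 in the NIZ. Its NIZ samples were the closest together and lay within the range of both other zones.

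In the values as deposited, Slc25a45, a less studied carrier, was the only one whose injured zones both stood clear of the NIZ, and other scalings of the arrays gave more carriers with no overlap in IZ against NIZ (6 of 48 after median centring, where 15.3% of all clusters had none). It measured 6.49, 6.56 and 6.44 in the IZ, 6.69, 6.49 and 6.49 in the BZ, and 6.43, 6.43 and 6.42 in the NIZ. Every IZ and BZ sample lay above every NIZ sample, by margins that were small beside the spread of other carriers. The closest were IZ sample 3 at 6.440821 and NIZ sample 2 at 6.432219. IZ sample 1 and BZ samples 2 and 3 held the same value, 6.490476. The differences were 0.07 ± 0.06 and 0.13 ± 0.06, 1.05-fold and 1.10-fold, with an exact two-sided permutation p of 0.1 in each, the smallest possible (limma, adjusted p = 0.999 and 0.854). They fell to 0.039 in the IZ without IZ sample 2 and to 0.064 in the BZ without BZ sample 1. IZ and BZ were compared with the same NIZ arrays. In IZ against NIZ 1 of the carriers was higher with no overlap (1.78% of all clusters) and 0 were lower (4.55%). In BZ against NIZ 1 was higher (2.51%) and 0 were lower (3.72%).

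Slc25a34, an orphan carrier, had the second widest range of the family after Ucp3. It measured 8.07, 8.56 and 8.71 in the IZ, 7.88, 9.02 and 8.35 in the BZ, and 7.85, 9.06 and 8.73 in the NIZ. Sample 1 was low and the zone means of 8.44, 8.42 and 8.54 were close. Differences from the NIZ were -0.10 ± 0.38 and -0.13 ± 0.38. Without a block, the 95% intervals were wide, from -0.99 to 0.79 and from -1.02 to 0.76. With the sample number as a block, the interval of IZ against NIZ ran from -0.52 to 0.32.

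The remaining carriers varied less. The median range over the 9 arrays was 0.38 log2 for the family, 9 carriers stayed within 0.2, 14 exceeded 0.5, and only Ucp3 (1.62), Slc25a34 (1.21) and Slc25a24 (1.17) exceeded 1. Slc25a21, Slc25a31, Slc25a54 and Ucp1 lay below the array median on every array, and 43 carriers lay above it on all 9. Slc25a31 is the ADP/ATP carrier of the testis. The 6 carriers of amino acids and choline had median differences from the NIZ of -0.03 in the IZ and 0.05 in the BZ. Within this group Slc25a44, a carrier of branched-chain amino acids, had the largest difference from the NIZ, 0.16 ± 0.08 in BZ against NIZ (limma, adjusted p = 0.854). The 10 carriers of nucleotides, cofactors and glutathione had medians of 0.04 and -0.02. Of these, Slc25a39, a glutathione carrier, measured 8.05, 8.17 and 8.11 in the IZ, 7.93, 8.08 and 8.20 in the BZ, and 7.71, 8.03 and 8.23 in the NIZ, where the zones overlapped.

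An order by sample number ran through much of the family, a pattern noticed in the data. In 18 of 48 carriers (37.5%) sample 1 was the lowest of its zone in the IZ, the BZ and the NIZ alike, where 8.26% of all clusters and 10.2% of all genes showed this. These were Slc25a3, Slc25a4, Slc25a11, Slc25a12, Slc25a13, Slc25a16, Slc25a20, Slc25a22, Slc25a26, Slc25a29, Slc25a34, Slc25a36, Slc25a38, Slc25a39, Slc25a42, Slc25a46, Slc25a51 and Ucp3. Among clusters above the array median on all arrays the shares were 41.9% of 43 carriers and 12.6% of 30564 clusters. Since the 3 zones were cut from the same hearts, these zones are not separate replicates of the pattern. After median centring of the arrays 15 of the 18 kept it, the exceptions being Slc25a22, Slc25a26 and Slc25a51, and after quantile normalization all 18 did. The mean of all 48 carriers was 6.79, 6.86 and 6.89 in IZ samples 1 to 3, 6.77, 6.89 and 6.86 in the BZ, and 6.77, 6.89 and 6.90 in the NIZ. No carrier was lowest in sample 2 of every zone, and Slc25a1, Slc25a24 and Slc25a30 were lowest in sample 3. Only Slc25a24 was highest in sample 1 of every zone (2.08%, beside 5.94% of all clusters). Slc25a3, Slc25a11, Slc25a13 and Slc25a42 were highest in sample 3 of every zone (4 of 48 or 8.33%, beside 6.67% of all clusters).

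**Figure D3:**
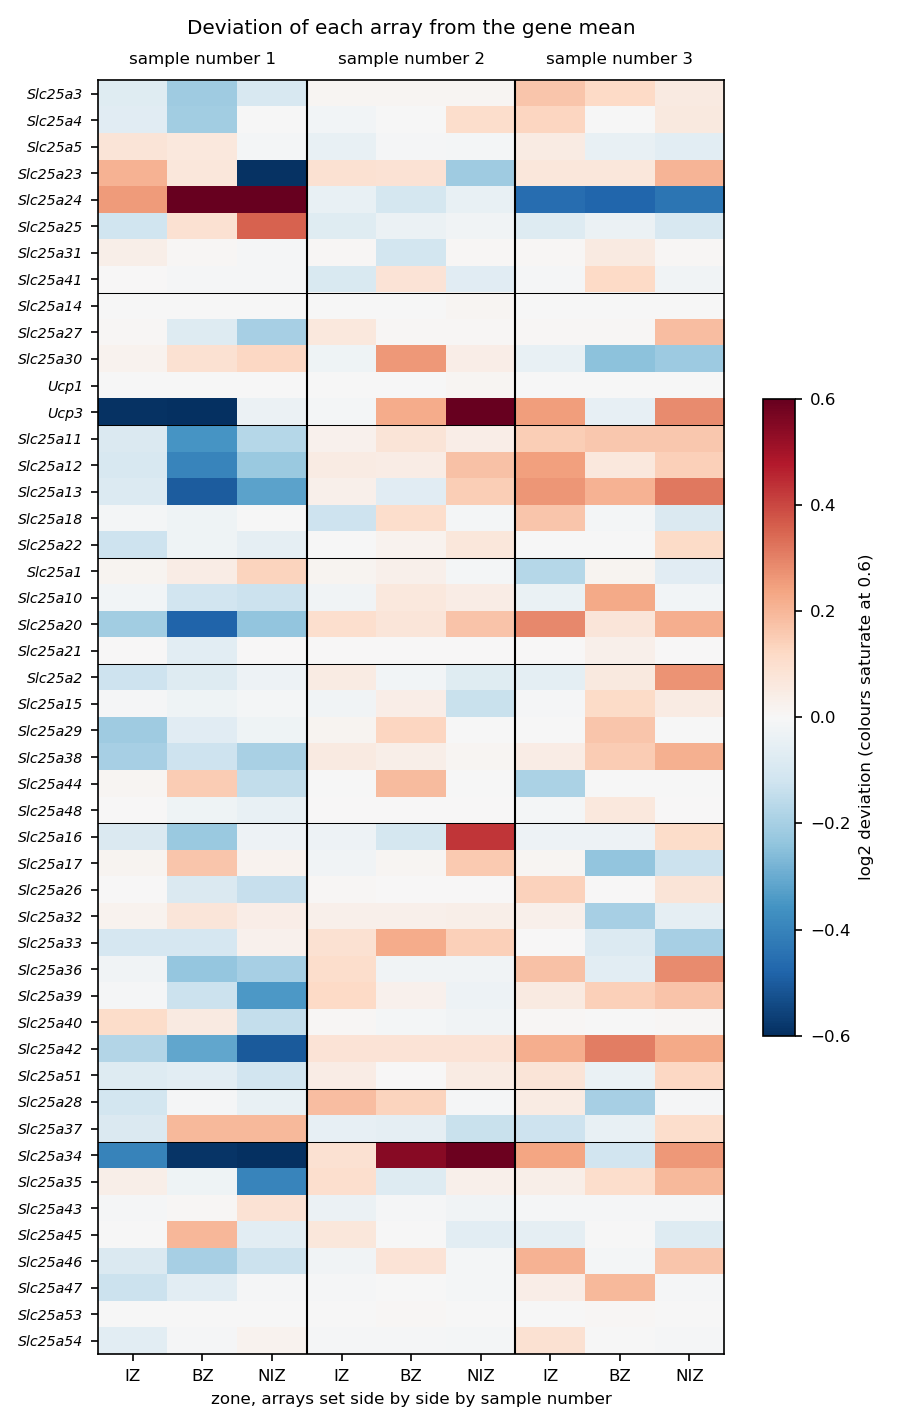
Deviation of each of the 9 arrays from the mean of the gene, in log2, for the 48 carriers, with arrays set side by side by sample number and thin lines between kinds of carrier; colours saturate at 0.6. The columns of sample 1 are mostly blue for Slc25a11, Slc25a12, Slc25a13, Slc25a20, Slc25a34, Slc25a42 and Ucp3, and red for Slc25a24.

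When zones were compared at each sample number, at most 7 carriers of 48 differed one way at all 3 in any comparison. The BZ lay below the NIZ at all 3 numbers for 7 of 48 carriers, Slc25a4, Slc25a12, Slc25a13, Slc25a16, Slc25a20, Slc25a24 and Ucp3, where 13.8% of 30087 genes did. It lay above at all 3 for Slc25a5, Slc25a10 and Slc25a45, 3 of 48, where 11.0% of genes did. The IZ lay below the NIZ at all 3 for 3 of 48 (11.8% of genes) and above it for 2 of 48 (7.97%). Against the BZ, the IZ was lower at all 3 for 5 of 48 (11.0%) and higher for 6 of 48 (9.05%). For Ucp3 the differences of BZ from NIZ were -0.80, -0.55 and -0.33 at samples 1, 2 and 3, and those of IZ from NIZ were -0.56, -0.79 and -0.03. With the sample number as a block in limma, its unadjusted p was 0.025 in the IZ and 0.011 in the BZ, and the adjusted p was 0.807 and 0.669. Its 95% intervals with the block ran from -0.84 to -0.08 and from -0.94 to -0.18.

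Genes that work with these carriers were read on the same arrays, and none passed in either direction in limma. The 7 measured partners of ATP export, which include subunits of ATP synthase and the creatine kinases Ckmt2 and Ckm, had mean levels of 11.22, 11.33 and 11.47 in the IZ, 11.05, 11.34 and 11.38 in the BZ, and 11.11, 11.31 and 11.44 in the NIZ. Like the mean of the 48 carriers, the mean of this list was lowest in sample 1 of each zone, and 0 of its 7 genes passed. Ckm is also on the cardiomyocyte list. The 4 enzymes of the malate-aspartate shuttle measured 11.95, 12.05 and 12.19 in the IZ, 11.79, 12.10 and 12.08 in the BZ, and 11.89, 12.09 and 12.13 in the NIZ, again with sample 1 lowest and 0 of 4 passing. The 5 measured partners of the carnitine shuttle, 0 of which passed, stood at 9.44, 9.20 and 9.15 in sample 1 of the IZ, BZ and NIZ and between 9.55 and 9.70 in the other samples. Cpt2, which rebuilds acyl-CoA after Slc25a20 has delivered its cargo, measured 9.99, 10.25 and 10.40 in the IZ, 9.52, 10.10 and 9.96 in the BZ, and 9.53, 10.06 and 10.28 in the NIZ.

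The order by sample number was also seen in the mean levels of other transporters and of regulators. Of 22 inner membrane transport genes outside the family, 16 were measured and 0 passed, with mean levels of 7.82 to 7.95. Of 9 regulators of mitochondrial genes, 8 were measured and 0 passed, and Ppargc1a, a coactivator of mitochondrial biogenesis, measured 9.58, 9.76 and 10.10 in the IZ, 9.27, 9.77 and 10.04 in the BZ, and 8.79, 9.85 and 10.01 in the NIZ. The mean of each of these lists was lowest in sample 1 of every zone. Among their genes, Abcb8 and Tmem65 were lowest there like Ppargc1a, whereas Sfxn1 and Sfxn3 were highest in sample 1 of every zone. Nrf1 was highest in sample 1 of the BZ and NIZ. Of the 13 outer membrane channels and import genes 0 passed, and their mean lay between 9.18 and 9.27. It was lowest in sample 1 of the BZ and NIZ but not of the IZ. The same was true of the mean of the 20 cardiomyocyte markers. It was 11.72, 11.68 and 11.75 in the IZ, 11.60, 11.78 and 11.77 in the BZ, and 11.71, 11.82 and 11.75 in the NIZ. Single markers went both ways. Myh6, Tnnt2, Tnni3, Myl2, Myl3, Mybpc3, Ryr2, Atp2a2, Pln, Ttn, Ckm and Mb were lowest in sample 1 of every zone, like many carriers. Csrp3 and Nppb were highest in sample 1 of every zone, and Nppa in sample 1 of the IZ and BZ.

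Mean levels of macrophage and neutrophil markers moved with the sample number as well. The mean of 18 monocyte and macrophage markers was 8.93, 8.82 and 8.44 in the IZ, 9.19, 8.61 and 8.20 in the BZ, and 8.63, 8.18 and 8.11 in the NIZ. This mean was highest in sample 1 and lowest in sample 3 of every zone, the order of Slc25a24 and the reverse of Slc25a13. Itgam, Cd14, Msr1, Cd68, Ccr2 and Mpeg1 had that order in every zone. Other markers did not: Lyz2, C1qa, C1qb, C1qc, Adgre1, Csf1r and Ms4a7 were highest in sample 3 of the NIZ (Lyz2 10.53, 10.37 and 10.98). The mean of 18 neutrophil markers was 8.89, 7.62 and 6.15 in the BZ and 8.78, 7.63 and 5.82 in the NIZ, but 7.30, 7.31 and 7.87 in the IZ, where the order differed. All markers of both lists lay above the array median on all 9 arrays. Of the macrophage markers 16 of 18 were higher in IZ and 16 of 18 in BZ than in NIZ, with median differences of 0.45 and 0.34 and 0 passing in limma. The part of these cells in the levels of the carriers was not tested.

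**Figure D4:**
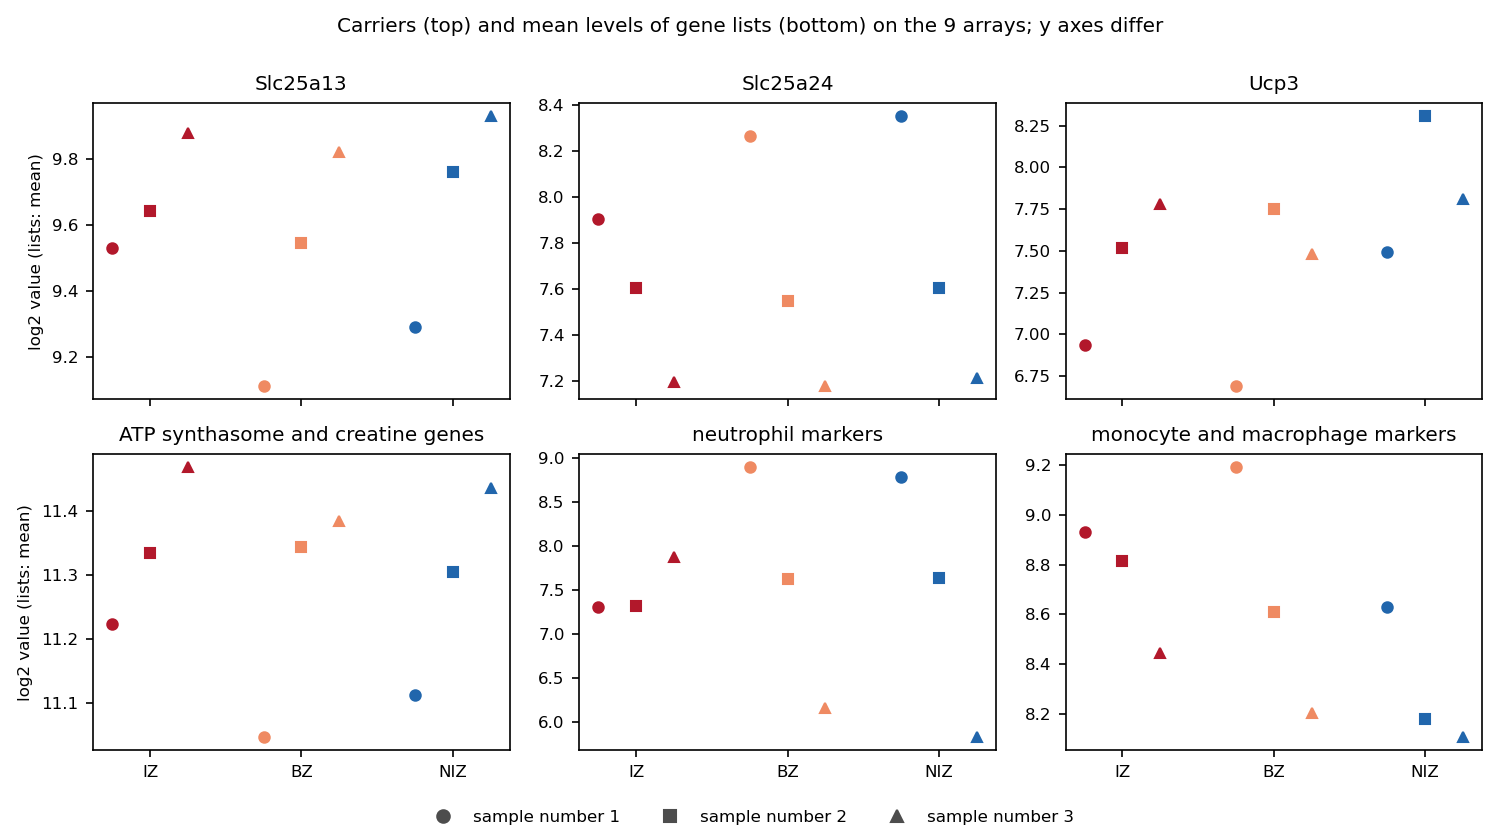
Log2 levels of Slc25a13, Slc25a24 and Ucp3 (top) and mean log2 levels of the ATP export partners, neutrophil markers and monocyte and macrophage markers (bottom) on each of the 9 arrays, by zone and sample number; y axes differ. Slc25a13 and the mean of the ATP export partners are lowest in sample 1 of each zone, whereas Slc25a24 and the mean of the macrophage markers are highest there. Slc25a24 is the only carrier that is highest there in every zone.

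The stretches just upstream of the annotated starts were read for all carriers with a sequence window, whether or not they followed the sample number. RefSeq windows (GRCm38.p6) were at hand for 38 of the 48 carriers, and 250 bases before the start were searched on both strands. The half-site of nuclear receptors, AGGTCA, was in 6 of 38 (15.8%) and in 15.8% of all genes, and the longer element of estrogen-related receptors, TNAAGGTCA, which contains it, was in 0 of 38 and in 1.3% of all genes. The NRF1 core, GCATGCGC, was in Slc25a31 and Slc25a54 only (5.26%, beside 2.56% of all genes), and the GC box of SP1, GGGCGG, was in 25 (65.8%, beside 35.4%). The 120 bases before the start are printed for Ucp3, Slc25a20 and Slc25a4, which were lowest in sample 1 of every zone, and for Slc25a24, which was highest there. Capitals mark AGGTCA and GGGCGG or its reverse complement. They lie at chr7:100472871-100472990 (plus strand), chr9:108662016-108662135 (plus strand), chr8:46211063-46211182 (minus strand) and chr3:109123029-109123148 (plus strand), in that order.
Ucp3: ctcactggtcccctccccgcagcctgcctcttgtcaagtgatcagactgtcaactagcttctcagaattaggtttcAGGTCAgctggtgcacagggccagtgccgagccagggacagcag
Slc25a20: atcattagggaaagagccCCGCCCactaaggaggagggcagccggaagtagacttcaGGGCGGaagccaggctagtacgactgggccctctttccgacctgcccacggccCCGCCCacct
Slc25a4: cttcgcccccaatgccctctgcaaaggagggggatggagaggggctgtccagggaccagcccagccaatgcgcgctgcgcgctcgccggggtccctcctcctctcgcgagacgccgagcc
Slc25a24: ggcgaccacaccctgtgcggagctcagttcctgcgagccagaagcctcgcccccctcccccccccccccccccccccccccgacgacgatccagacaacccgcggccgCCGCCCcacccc
Ucp3 holds 1 half-site and no GC box in this stretch, Slc25a20 holds 3 GC boxes, Slc25a24 holds 1, and Slc25a4 holds neither. Their GC content was 58.3%, 64.2%, 71.7% and 78.3% from Ucp3 through Slc25a20 and Slc25a4 to Slc25a24. A match of letters is a description and says nothing of binding.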

How the data were processed

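Total RNA of 9 heart samples (100 ng each) was hybridised to GeneChip Mouse Transcriptome Assay 1.0 arrays. The authors deposited 1 table of log2 values, which RMA gives after background correction, normalization of the arrays and summary of the probes. Transcriptome Analysis Console 3.0 and Affymetrix Expression Console 1.0 are the programs that the submitters' processing notes list. The values were used as deposited, without a filter. The platform annotation was read as given: of 65534 clusters, 30414 had 1 gene symbol, 2146 had more than 1 and could name no gene, and 32974 had no symbol. All 48 carriers lie on the chromosome that their cluster identifier gives (RefSeq, GRCm38.p6).

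A linear model of zone on all 9 arrays, with no block, was fitted by lmFit, contrasts.fit and eBayes of limma 3.58.1 (R 4.3.3). The fit was tested on simulated data. The members, gene lists and comparisons were chosen with earlier results of these data known. The rule for named genes took any carrier past the threshold, 12 fixed carriers, up to 4 per comparison whose zones did not overlap and the 4 with the widest range. Slc25a16, Slc25a23 and other carriers outside the rule were named after their values were seen, and the order by sample number and the check of its scaling were added then too. Samples of the same number had correlated deviations from their zone means over all clusters in BZ and NIZ (r = 0.62, 0.20 and 0.52), which was taken as pairing, but in IZ and NIZ r was 0.36, 0.08 and 0.25. Among the carriers r was 0.81, 0.79 and 0.67 in BZ and NIZ, where different numbers reached at most 0.21. It was 0.71, 0.27 and 0.44 in IZ and NIZ, and 0.89, 0.32 and 0.64 in IZ and BZ. For the IZ, same numbers did not always match best: IZ sample 3 had r = 0.59 with NIZ sample 2 and 0.64 with BZ sample 2. Errors, intervals and adjusted p come from the fit without this pairing, except where a block is named. Groups came from the sample titles, since the label tag that holds the zone is named brain while the source is given as heart. Alternatives were leaving out dim clusters or those without exactly 1 symbol, centring arrays on their median or normalizing their quantiles, the sample number as a fixed or random block, array weights, a trended variance, only 2 zones, the methods' test (a one-way comparison with Bonferroni-corrected pairs) and leaving out samples.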

Additional observations from a re-analysis of the deposited data

How the results depend on the processing

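The precision of these values is set by 3 arrays in each zone, and background signal was not analysed here. Under none of 22 alternatives did a carrier pass an adjusted p of 0.05, and the smallest was 0.189 (Slc25a23, IZ against NIZ, without NIZ sample 3). Without that array 216 clusters passed between IZ and NIZ and 173 between BZ and NIZ, and without all samples numbered 3 it was 68 and 65. The sample number as a block changed no call. Counts of carriers at an unadjusted p under 0.05 were 0, 1 and 0 in IZ against NIZ, BZ against NIZ and IZ against BZ, where 3.96%, 5.28% and 3.84% of all clusters passed. They became 1, 3 and 3 with the block (5.95%, 7.23% and 5.28% of clusters), and 2, 3 and 3 with array weights (10.1%, 12.3% and 9.93%). In BZ against NIZ the count was 0 with only 2 zones (3.21% of clusters) or the methods' test (0.876%). In IZ against BZ it was 1 with a random block (4.75%) or quantile normalization (3.61%). When samples were left out, the counts were 0 to 2, 0 to 3 and 0 to 3 (up to 8.05%, 7.78% and 7.34%). Counts of carriers with no overlap, 1 in each comparison (6.33%, 6.23% and 5.77% of clusters), became 6, 2 and 4 after median centring (15.3%, 11.1% and 8.76%) and 6, 4 and 4 after quantile normalization (13.6%, 11.8% and 8.97%), and 1 to 11, 1 to 14 and 1 to 11 when samples were left out (up to 31.0%, 26.7% and 28.7%), where fewer samples make no overlap easier. After median centring those in IZ against NIZ were 6 higher and 0 lower, and in IZ against BZ 4 higher and 0 lower, so the lone Slc25a25 was lost. Over all clusters in IZ against NIZ, 1168 higher and 2979 lower became 8490 and 1519, while the median of all clusters moved from -0.01 to 0.01. In IZ against BZ, 1467 higher and 2314 lower became 4045 and 1694. With array weights Ucp3 in IZ against BZ became -0.15 and Slc25a34 in BZ against NIZ 0.0079. Some differences changed sign when samples were left out. In BZ against NIZ these included the ones for Slc25a12 (-0.25 to 0.023), Slc25a13 (-0.35 to 0.023), Slc25a20 (-0.30 to 0.025), Slc25a24 (-0.36 to 0.25) and Slc25a34 (-0.48 to 0.14). The same held for Slc25a24 (-0.41 to 0.16) and Slc25a34 (-0.45 to 0.16) in IZ against NIZ, and for Ucp3 (-0.21 to 0.34) and Slc25a20 (-0.014 to 0.31) in IZ against BZ. Smaller differences of other carriers, such as Slc25a11 in all 3 comparisons (-0.15 to 0.17 without single arrays), did so too. Causes were not tested. Averaging all clusters of a gene gave no other value, since each carrier has 1 cluster.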
